A study of Mus musculus with 7 samples.

Results

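The genes followed here were Trem2, Tyrobp, Cst7, Clec7a, Cd68, Laptm5, Mpeg1, Aif1 and Slc15a3, the receptor TREM2, its adaptor and other genes known from phagocytes. They were found by their symbols in a table of 1778 probe sets that the authors deposited with a signed fold. All 9 genes were found, each with 1 probe set, among 1597 genes that this table names and 22193 features measured on every array. The symbols were listed with results of these arrays already known, and the table itself holds probe sets that differed between the CETP diet groups, so the difference between those groups is described and not tested.

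Single-colour Affymetrix arrays, 7 in all and each with an animal number of its own, measured expression in cells purified from mouse brain. The first 3, CETP transgenic mice (B6.CBA-Tg(CETP)5203Tall/J, replicates 1 to 3), had received a 1% cholesterol diet for 2 months, from 2 to 4 months of age. Another 2 CETP transgenic mice (replicates 4 and 5) carry a standard-diet label, although the growth protocol names the cholesterol diet for transgenic animals as such, so their diet rests on their own label. The last 2 mice (replicates 2 and 3) were wild type on a standard diet, and the labels give no age for the standard-diet mice. The transgene supplies human CETP, the plasma protein that exchanges cholesteryl esters and triglycerides between lipoproteins and that mice lack. The labels do not say which cells express it.

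Cells were taken from whole brain with magnetic beads against ACSA-2, an astrocyte surface antigen, and more than 70% stained for GFAP by flow cytometry. The remaining cells are of other, unstated types. Only 2 genes of the astrocyte marker list are named by the files: Sox9, an astrocyte transcription factor, lay between 14.43 and 15.31 (log2), and Slc1a3, the glutamate transporter GLAST, between 11.59 and 13.68. On each of the 7 arrays both exceeded the median of the negative controls. Other defining markers, Gfap and Aqp4 among them, are not named in the table used here.

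TREM2 is a lipid-sensing receptor of microglia and other tissue macrophages. It has no signalling motif of its own and passes its signal through the adaptor DAP12, the product of Tyrobp, to the kinase SYK. In mouse models of amyloid deposition and demyelination, microglia that engage this pathway lower homeostatic genes and express more Cst7 and Clec7a, among others. In healthy brain the 9 genes are known mainly from microglia and border macrophages, and not from astrocytes.

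Promoter sequence was examined because the 9 genes are known from myeloid cells, where the transcription factor PU.1 acts. The RefSeq promoter table (assembly GRCm38.p6) matched 7 of the 9 genes, with Tyrobp and Slc15a3 unmatched. The letters GAGGAA, the core of sites that PU.1 binds, were searched on both strands in the 250 bases before the start that the table gives for each gene. For Laptm5 all 250 of these bases, for Aif1 31 (the match included) and for Clec7a 6 lie inside the annotated gene, so the matches of Laptm5 and Aif1 are not upstream of the whole gene. They were present in 5 of the 7 genes (Trem2, Clec7a, Cd68, Laptm5 and Aif1), and in 23.1% of 27025 promoters of the table. The AP-1 letters TGACTCA or TGAGTCA, which do not overlap that core, were present in 1 of the 7 (Cd68), against 4.43% of all promoters. The E-box CACGTG was present in 0 of 7, against 6.05% of all. A match describes letters in a window and no bound site. The windows of Trem2 (chr17:48346151-48346400, plus strand) and Cd68 (chr11:69666171-69666420, minus strand) are shown as the receptor and a lysosomal marker with the core, in capitals, on opposite strands and at different distances. The window of Mpeg1 (chr19:12460520-12460769, plus strand) is shown as one without it. Each reads 5′ to 3′ on the gene's strand.
Trem2: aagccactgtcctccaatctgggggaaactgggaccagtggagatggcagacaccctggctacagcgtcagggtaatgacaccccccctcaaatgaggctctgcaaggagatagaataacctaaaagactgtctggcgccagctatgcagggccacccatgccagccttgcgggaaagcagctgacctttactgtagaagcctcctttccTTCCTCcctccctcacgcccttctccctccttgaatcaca
Cd68: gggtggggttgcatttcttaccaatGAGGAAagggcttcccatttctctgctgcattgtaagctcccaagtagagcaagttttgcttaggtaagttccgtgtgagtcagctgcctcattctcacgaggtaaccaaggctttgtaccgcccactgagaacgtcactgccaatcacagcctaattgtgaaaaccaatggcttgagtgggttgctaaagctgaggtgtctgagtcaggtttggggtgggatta
Mpeg1: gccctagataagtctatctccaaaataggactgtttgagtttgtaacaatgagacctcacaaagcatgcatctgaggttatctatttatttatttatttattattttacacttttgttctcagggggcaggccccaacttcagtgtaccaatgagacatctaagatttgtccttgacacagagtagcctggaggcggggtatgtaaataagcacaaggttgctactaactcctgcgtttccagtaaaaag
The core begins 40 bases before the Trem2 start, where it lies on the opposite strand, and 225 bases before the Cd68 start, on the gene's strand.

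One array stood apart before any group was compared, that of replicate 4 of the CETP mice with the standard-diet label. On it, 45 of 22193 features (0.203%) lay 2 or more log2 units above the median of the other 6 arrays, while each other array had between 1 and 12 such features. Of the named genes, 2.25% lay as far above. All 9 genes were among the 45. Of the 45, 36 carry names, and 24, the 9 genes included, stood on one of the lists of myeloid genes or cell type markers used here. These lists were chosen with earlier results known. The array's median over all features, 7.58, was within the 7.51 to 7.59 of all arrays, and its correlation with each other array was between 0.98 and 0.99. Because this array decides most of the values below, each comparison is given with and without it. The features that carry names had been selected in part on this array, so the presence of the 9 genes among the 45 is a description. In bulk samples such as these, more cells of a type and more RNA per cell cannot be told apart.

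The receptor and its adaptor come first. Differences of the replicate 4 array from the other arrays are differences of deposited log2 values, and are not turned into folds of RNA, since most of the other values lie near or below the level of the negative controls. Trem2 had log2 values of 7.14, 6.24 and 6.92 on the CETP cholesterol arrays, 10.14 (replicate 4) and 6.09 (replicate 5) on the CETP standard-diet arrays, and 6.001 and 5.99 on the wild-type arrays. Replicate 4 was 3.98 above the median of the other 6 arrays, and replicate 5 lay beside the wild-type arrays. Tyrobp had 7.44, 6.99 and 7.40 on the CETP cholesterol arrays, 10.88 and 6.87 on the CETP standard-diet arrays, and 6.45 and 5.98 on the wild-type arrays. Here replicate 4 was 3.95 above the median of the others, and all 5 CETP arrays lay above both wild-type arrays. The group mean of Trem2 in the CETP standard-diet mice, 8.12 ± 2.87 (SD, n = 2), therefore falls between 2 values and near neither.

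The other genes of the microglial response to TREM2 signalling followed the same split between 1 array and 6. Cst7, which encodes cystatin F, an inhibitor of lysosomal cathepsins, had 6.73, 7.10 and 6.87 on the CETP cholesterol arrays, 10.46 and 6.96 on the CETP standard-diet arrays, and 6.30 and 6.95 on the wild-type arrays. Clec7a, which encodes dectin-1, a receptor for fungal beta-glucan that signals through SYK, had 4.76, 5.33 and 5.38 on the CETP cholesterol arrays, 8.79 and 5.54 on the CETP standard-diet arrays, and 5.54 and 5.70 on the wild-type arrays. Apart from replicate 4, the CETP arrays of Cst7 overlapped the wild-type arrays. The 3 cholesterol arrays of Clec7a lay below both wild-type arrays. Clec7a was the dimmest of the 9 probe sets on every array, but levels of different probe sets cannot be ranked as amounts of RNA.

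Among the lysosomal genes, Cd68, a heavily glycosylated membrane protein of macrophage lysosomes and endosomes, had 7.85, 7.83 and 7.76 on the CETP cholesterol arrays, 10.55 and 7.21 on the CETP standard-diet arrays, and 7.62 and 7.98 on the wild-type arrays. Its CETP standard-diet arrays were the highest and the lowest of the 7. Laptm5, a lysosomal membrane protein of blood-lineage cells, had 9.75, 9.27 and 9.95 on the CETP cholesterol arrays, 12.64 and 9.69 on the CETP standard-diet arrays, and 8.91 and 9.005 on the wild-type arrays. All 5 CETP arrays of Laptm5 lay above both wild-type arrays. Slc15a3, a lysosomal transporter of histidine and small peptides, had 7.80, 7.62 and 7.82 on the CETP cholesterol arrays, 11.85 and 7.76 on the CETP standard-diet arrays, and 6.64 and 7.14 on the wild-type arrays. On replicate 4, Slc15a3 was 4.16 above the median of the other arrays, Laptm5 3.16 and Cd68 2.75.

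Of the last pair, Mpeg1 encodes perforin-2, a pore-forming protein of phagocytes, and Aif1 encodes IBA1, an actin-binding protein widely used to stain microglia. Mpeg1 had 7.15, 6.44 and 6.73 on the CETP cholesterol arrays, 10.72 and 6.90 on the CETP standard-diet arrays, and 6.19 and 5.85 on the wild-type arrays. Aif1 had 7.43, 6.89 and 6.90 on the CETP cholesterol arrays, 10.20 and 7.05 on the CETP standard-diet arrays, and 7.04 and 7.64 on the wild-type arrays. The CETP arrays of Mpeg1 all lay above the wild-type arrays, while those of Aif1 lay on both sides of them. Over the other 6 arrays the 9 genes spanned between 0.75 (Aif1) and 1.46 (Tyrobp) log2 units, less than the distance of replicate 4 from the highest of those arrays, which was 2.56 or more for each gene.

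**Figure D1:**
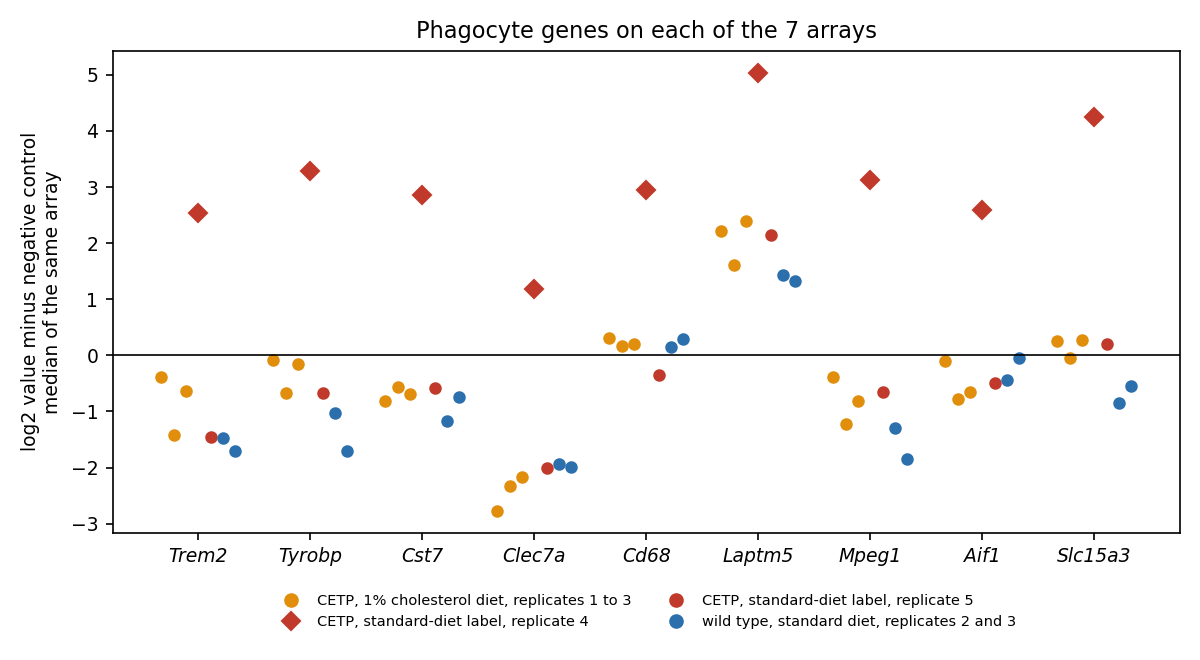
Log2 value minus the negative control median of the same array (vertical axis) for each of the 9 genes, with 1 point per array: CETP cholesterol (orange), CETP standard-diet label (red, replicate 4 as a diamond) and wild type (blue). The diamond is the highest point for every gene, at 1.19 to 5.04, and for 6 genes it is the sole point above the line at 0.

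Each array carries 5222 negative control entries, and their median served as a background level. These entries spread widely, from 2.74 to 19.6 over all arrays, so a value above their median is no proof of detection and no detection test was made. Of the 63 values of the 9 genes, 23 lay above the negative control median of their array. By array these were 3, 2 and 3 genes on the CETP cholesterol arrays, 9 and 2 on the CETP standard-diet arrays, and 2 and 2 on the wild-type arrays. Of all features, 50.2%, 48.2% and 49.9% lay above that median on the CETP cholesterol arrays, 49.7% and 49.5% on the CETP standard-diet arrays, and 51.4% and 48.1% on the wild-type arrays. Except on replicate 4, the 9 genes were thus above it no more often than features in general. Laptm5 was above it on 7 arrays, Cd68 on 6 and Slc15a3 on 4, and the other 6 genes on the replicate 4 array alone.

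The distances from the background make the low values plain. Trem2 was 0.39, 1.42 and 0.63 log2 units below the negative control median on the CETP cholesterol arrays. On the CETP standard-diet arrays it was 2.54 above and 1.46 below, and on the wild-type arrays 1.48 and 1.70 below. Tyrobp was 3.28 above on the replicate 4 array, and between 0.09 and 1.71 below on the other 6. For Trem2, Tyrobp, Cst7, Clec7a, Mpeg1 and Aif1, differences among the other arrays are thus differences between values below the middle of the negative controls. Only Laptm5 on the replicate 4 array passed the 95th percentile of the negative controls, with 96.5% of these entries below it.

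**Figure D2:**
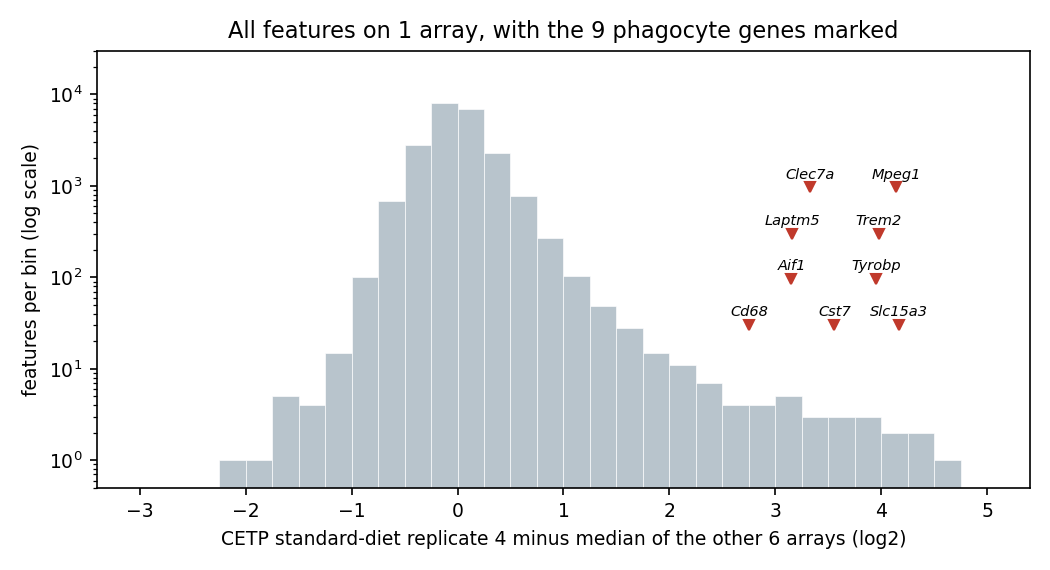
Number of features per bin (vertical axis, log scale) by the difference between the replicate 4 array of the CETP standard-diet group and the median of the other 6 arrays (horizontal axis, log2). Triangles mark the 9 genes at 2.75 to 4.16, their heights are set only to keep the names apart, and the median of all 22193 features is -0.01.

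On the replicate 4 array the median difference of the 9 genes from the other arrays was 3.56 log2 units, with all features at a median of -0.01. The array was the highest of the 7 for 9 of 9 genes, as it was for 9.84% of all features and 17.5% of the named genes. Measured against replicate 5, the other array with the same label, the 9 genes were between 2.94 (Laptm5) and 4.09 (Slc15a3) log2 units higher, with no replicate check on that difference. Across the 36 pairs of the 9 genes, Pearson's r over 7 arrays was between 0.87 and 0.99, with a median of 0.94. Over the 6 arrays without replicate 4 it was between -0.84 and 0.89, with a median of 0.04, and 17 of the 36 pairs were negative. All points of a pair share the same arrays. Among Trem2, Tyrobp, Laptm5, Mpeg1 and Slc15a3, the 10 pairs had an r between 0.65 and 0.89 over these 6 arrays. These 5 genes were grouped because their CETP arrays all lay above both wild-type arrays. That choice by itself pushes r upward, so nothing is read from these values. Trem2 and Cst7 had 0.03. The high values common to all 9 genes thus lie on 1 array.

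Markers of other cells were read on the same arrays, only where the table names them. Naming depended in part on replicate 4, and 17.5% of all named genes were highest there, so the counts below are descriptions. Of 15 microglia markers listed, 9 are named in the files and 6 of these are outside the 9 genes (Cx3cr1, C1qa and Gpr34 among them). Their summed linear level was 6337 to 10485 on the CETP cholesterol arrays, 8178 and 42383 on the CETP standard-diet arrays, and 4683 to 7304 on the wild-type arrays. All 6 were highest on the replicate 4 array, and there lay a median of 2.86 above the median of the other 6 arrays. No marker of this list is at 0 on any array, since every probe set has a log2 value. C1qa, a chain of the complement component C1q, had 10.44, 9.10 and 9.70 on the CETP cholesterol arrays, 13.62 and 9.46 on the CETP standard-diet arrays, and 8.85 and 7.59 on the wild-type arrays. Its difference of 4.33 on replicate 4 exceeded that of each of the 9 genes.

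The other marker lists were read likewise. All 5 named endothelial markers were highest on the replicate 4 array, a median of 1.04 above the median of the other arrays. So were 3 of 4 pericyte and smooth muscle markers, with a median of 0.85 for the 4. The 2 named neutrophil markers were also highest there. Csf3r, the G-CSF receptor, was 3.03 above the median of the others, and S100a8, a calcium-binding protein abundant in neutrophils, 0.79. S100a8 passed the negative control median on 0 of 7 arrays. The astrocyte markers Slc1a3 and Sox9 lay within 0.03 of the median of the other arrays. Olig2 (oligodendrocyte lineage) and Camk2a (neurons) were 0.14 and 0.53 above it without being highest, and neither of 2 choroid plexus markers was highest. Of 2 named markers of perivascular and border macrophages, Cd74 (the MHC class II invariant chain) was highest on replicate 4, at 8.96. Replicate 5 had 8.28, CETP cholesterol replicate 3 had 8.20, and the remaining arrays were between 6.72 and 7.02. On replicate 4, Cd74 was 2.04 above the median of the other arrays, and the folate receptor Folr2 0.08. No T and NK cell, B cell or red blood cell marker is named in the files. The part of other cell types in the values of the 9 genes was not tested.

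**Figure D3:**
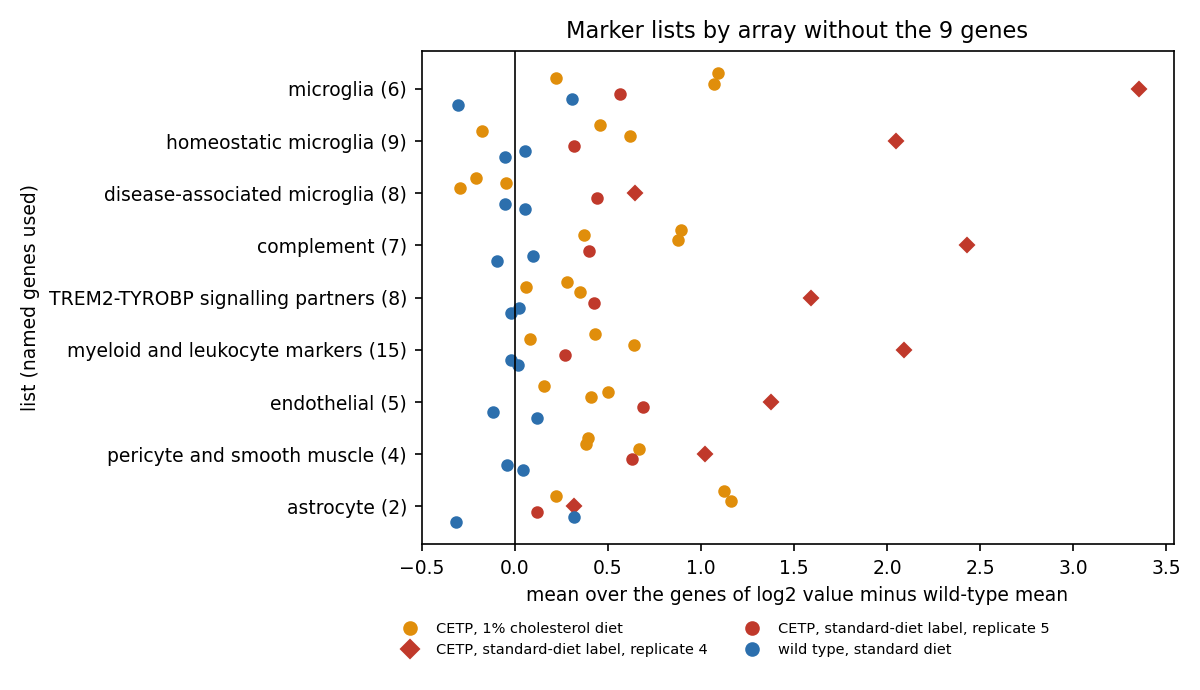
Mean over a list's named genes, leaving out the 9 genes, of the log2 value minus the wild-type mean (horizontal axis), with 1 point per array and lists down the page (number of genes used in brackets). The replicate 4 array of the CETP standard-diet group (red diamond) is at 3.35 for microglia, 2.05 for homeostatic microglia, 0.65 for disease-associated microglia, 1.37 for endothelium and 0.32 for astrocytes.

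The genes around the receptor were described from lists, chosen with earlier results known, and only for genes the deposited table names. As for the markers, naming depended in part on replicate 4, and 17.5% of all named genes were highest on it. Of 38 TREM2-TYROBP signalling partners 10 are named, 8 of them outside the 9 genes, and 7 of these 8 were highest on the replicate 4 array. They include Spi1, which encodes PU.1, with 7.95, 7.23 and 8.18 on the CETP cholesterol arrays, 9.63 and 7.96 on the CETP standard-diet arrays, and 7.44 and 7.17 on the wild-type arrays. Inpp5d encodes SHIP1, a lipid phosphatase that restrains signalling through DAP12. It had 8.38, 7.19 and 8.77 on the CETP cholesterol arrays, 10.78 and 7.85 on the CETP standard-diet arrays, and 6.98 and 7.14 on the wild-type arrays. All 5 CETP arrays of Inpp5d lay above both wild-type arrays. Syk, the kinase of the pathway, was only 0.50 above the median of the other arrays on replicate 4.

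On the replicate 4 array, the named homeostatic and disease-associated genes of microglia both lay, by their medians, above the other arrays. Naming depended in part on that array, and the unnamed genes of both lists were not seen. A shift from one list to the other was thus not tested. Of 25 homeostatic genes listed 9 are named, and all 9 were highest on replicate 4. They lay a median of 1.83 above the median of the other arrays, with Selplg, a P-selectin ligand, at 2.82. Cx3cr1, the fractalkine receptor, had 8.22, 7.40 and 8.62 on the CETP cholesterol arrays, 9.85 and 8.13 on the CETP standard-diet arrays, and 7.80 and 7.34 on the wild-type arrays. Of 13 named genes of the disease-associated list, 5 are among the 9 genes and 4 of the other 8 were highest on replicate 4. The 8 lay a median of 0.73 above the median of the other arrays, with differences from -0.30 (Ank) to 1.58 (Ctsz). Apoe, the apolipoprotein that astrocytes also make in quantity, was 0.17 above the median of the other arrays. Of 33 myeloid and leukocyte markers listed 19 are named, and all 15 of these outside the 9 genes were highest on replicate 4. So were 6 of 7 named complement genes and 6 of 7 further named engulfment and lysosome genes, against 17.5% of all named genes. The lists share some genes, such as Ctss. The cytokines Il1a and Il1b and the inflammasome sensor Nlrp3, named from the list around Clec7a, were highest on replicate 4 too. They lay a median of 1.32 above the median of the other arrays.

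By a rule of likeness, the 5 named genes with the highest Pearson's r to the mean of the 9 centred genes over 7 arrays were Tgfb1 (0.99), Cd53 (0.99), Il1b (0.99), Cd37 (0.98) and Bcl2a1a (0.98). Tgfb1 and Il1b encode cytokines, Cd53 and Cd37 leukocyte tetraspanins, and Bcl2a1a an inhibitor of apoptosis with near-identical copies in the mouse, so that its probe set may read more than 1 of them. Over the 6 arrays without replicate 4 the same r was 0.72 for Tgfb1, 0.57 for Cd53, 0.39 for Il1b, 0.86 for Cd37 and 0.20 for Bcl2a1a. All 5 genes were picked with replicate 4 included. Without it, in the same order, their r ranked 166, 344, 496, 51 and 662 among the named genes outside the 9. Bcl2a1a had the largest difference of all features on that array, at 4.63 log2 units over the median of the others.

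The comparison of the 5 CETP arrays with the 2 wild-type arrays pools both CETP diet groups. No wild-type array comes from the cholesterol diet, so genotype and diet cannot be told apart in it. In a model where all arrays vary alike, its estimate is uncorrelated with the difference between the diet groups by which the table was selected. For the 9 genes replicate 4 stands apart and enters both, so their positive differences are not free of the selection. No feature passed limma's test at an adjusted p of 0.05 (0 of 22193, 0%, with a smallest adjusted p of 0.461, and 1845 at an unadjusted p under 0.05), and 0 of the 9 genes did. At an unadjusted p under 0.05, 0 of the 9 were higher, against 3.15% of all features. All 9 genes had positive differences, with a median of 1.30 log2 units, while the median of all features was -0.05. Adjusted p-values of the 9 genes were between 0.62 and 0.909. Tyrobp averaged 7.92 on the CETP arrays and 6.21 on the wild-type arrays, a difference of 1.70 ± 0.80 (SE). The differences were 1.68 ± 0.81 for Slc15a3, 1.57 ± 0.77 for Mpeg1, 1.31 ± 0.82 for Trem2, 1.30 ± 0.61 for Laptm5 and 1.00 ± 0.71 for Cst7. For Cd68, Aif1 and Clec7a they were 0.44 ± 0.67, 0.35 ± 0.65 and 0.34 ± 0.66, smaller than their errors.

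Ordering by group rather than by mean gave a similar division of the 9 genes. For 5 of them (Trem2, Tyrobp, Laptm5, Mpeg1 and Slc15a3) every CETP array lay above both wild-type arrays, as for 5.11% of all features. Leaving out replicate 4 cannot undo this placement for these 5 genes, so it is no check on that array. With 1 array fewer, 6.61% of all features were so placed. Without replicate 4, the median difference was 0.60, and 6 of the 9 were positive. Tyrobp then averaged 0.96 ± 0.23 above wild type, Slc15a3 0.86 ± 0.22, Mpeg1 0.79 ± 0.25, Laptm5 0.71 ± 0.24 and Trem2 0.60 ± 0.27. Cst7 was at 0.29 ± 0.24, and Cd68, Aif1 and Clec7a were at -0.14 ± 0.20, -0.27 ± 0.26 and -0.37 ± 0.23. No gene or other feature passed (0%), with adjusted p-values of the 9 genes between 0.595 and 0.863 by limma. At an unadjusted p under 0.05, 4 of the 9 were higher, against 2.98% of all features.

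**Figure D4:**
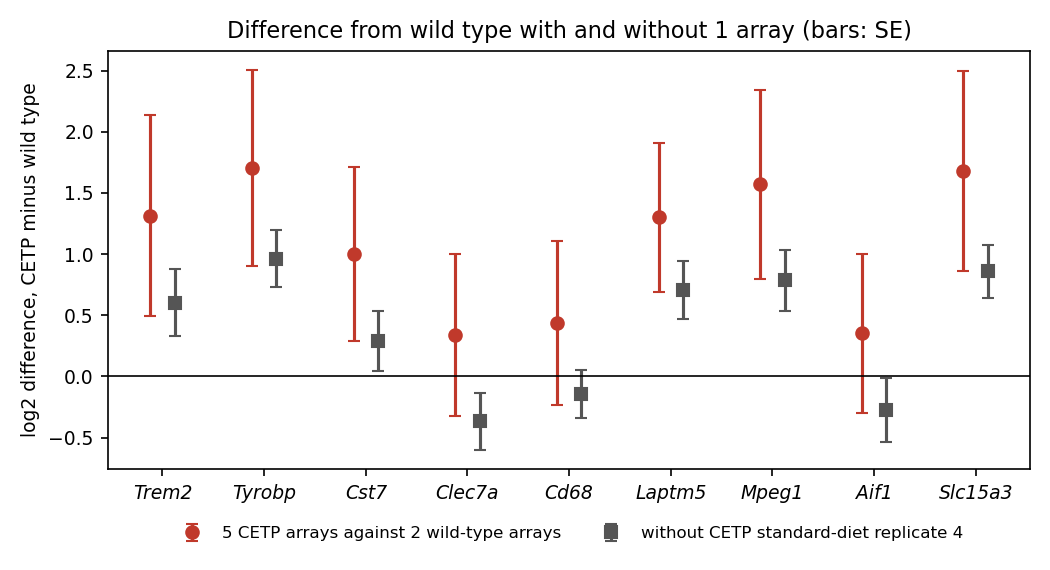
Log2 difference between the CETP and wild-type arrays (vertical axis, bars are SE from the limma fit) for each of the 9 genes, from 5 CETP and 2 wild-type arrays (red circles) and without replicate 4 of the CETP standard-diet group (grey squares). Without that array Tyrobp is at 0.96 and Clec7a at -0.37, and the errors are 0.20 to 0.27, against 0.61 to 0.82 with it.

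Microglial markers outside the 9 genes lay above both wild-type arrays, on average, on 4 of the 5 CETP arrays. The 6 microglia markers averaged 1.09, 0.22 and 1.07 above the wild-type mean on the CETP cholesterol arrays, and 3.35 and 0.56 on the CETP standard-diet arrays, with the wild-type arrays at 0.31 and -0.31. Their median difference between CETP and wild type was 1.08, and 0.63 without replicate 4. The endothelial markers had medians of 0.56 and 0.30. The astrocyte pair averaged 1.12, 0.22 and 1.16 above the wild-type mean on the CETP cholesterol arrays, 0.32 and 0.12 on the CETP standard-diet arrays, and 0.32 and -0.32 on the wild-type arrays. Their part in the differences of the 9 genes was not tested.

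None of the named genes on the lists around the receptor passed the test between CETP and wild type either. Those with the smallest unadjusted p among the signalling partners were Lyn, a SRC-family kinase, at 1.00 ± 0.26, Inpp5d at 1.54 ± 0.67, Spi1 at 0.89 ± 0.41 and Vav1, a signalling protein of blood-lineage cells, at 0.62 ± 0.44 (adjusted p 0.5 to 0.727 by limma). Without replicate 4 these 4 differences were 0.80, 0.99, 0.53 and 0.27. The median of the 8 partners was 0.46, and 0.24 without replicate 4. Selplg, at 1.88 ± 0.64, had the smallest p of the homeostatic list, whose median was 0.37 with 9 of 9 positive, and 0.17 with 5 of 9 positive without replicate 4. Fcer1g, the Fc receptor gamma chain, which like DAP12 is a signalling adaptor, was at 1.31 ± 0.52, and the toll-like receptor Tlr7 at 1.13 ± 0.42. The disease-associated list without the 9 genes had a median of 0.15, and 0.02 without replicate 4.

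The CETP mice with the standard-diet label were compared with wild-type mice to set the genotypes side by side at the same diet label. The comparison shares the CETP arrays with the selection of the named probe sets, so its counts describe the 9 genes and support nothing. No feature passed (0%) and 0 of the 9 genes did, with adjusted p-values between 0.925 and 0.929 by limma. The median difference was 2.12, from 1.08 ± 0.80 for Cd68 to 2.92 ± 0.97 for Slc15a3, with Trem2 at 2.12 ± 0.98 and Tyrobp at 2.66 ± 0.96. For 6 genes (the 5 above and Cst7) both CETP arrays lay above both wild-type arrays, as for 12.1% of features. With replicate 5 as the lone CETP array the median was 0.34, with Trem2 at 0.09, Tyrobp at 0.65, Laptm5 at 0.74, Slc15a3 at 0.87 and Mpeg1 at 0.88. Cd68, Aif1 and Clec7a were then at -0.60, -0.29 and -0.08. With replicate 4 as the lone CETP array, in a fit that assumes 1 array to vary like the other groups, 9 of 22193 features (0.0406%) passed, and 8 of them were among the 9 genes (all but Aif1). The 9 genes had been selected through that array, so nothing is read from this count.

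The CETP mice on the cholesterol diet were compared with wild-type mice, the comparison that the design text names. These groups differ in both genotype and diet, which cannot be told apart. The comparison uses neither array of the CETP standard-diet group in its means, though replicate 4 enters the shared estimate of the spread. Its cholesterol arrays took part in the selection of the named probe sets, so its counts describe the 9 genes. Again no feature passed (0%), and 0 of the 9 genes did, with adjusted p-values of 0.741 to 0.998 by limma. At an unadjusted p under 0.05, 0 of the 9 were higher, against 3.36% of features. The differences were 1.06 ± 0.88 for Tyrobp, 0.86 ± 0.89 for Slc15a3, 0.77 ± 0.90 for Trem2, 0.75 ± 0.84 for Mpeg1 and 0.70 ± 0.66 for Laptm5. For these 5 genes the 3 cholesterol arrays lay above both wild-type arrays, as for 9.96% of features. Cst7 was at 0.27 ± 0.78, Cd68 at 0.01 ± 0.73 and Aif1 at -0.27 ± 0.71. Clec7a was at -0.46 ± 0.72, with the cholesterol arrays below both wild-type arrays, as for 15.1% of features. When replicate 4 was left out of the fit, the means stayed as they were and the errors were 0.21 to 0.29. At an unadjusted p under 0.05 by limma, 5 of the 9 genes were then higher, against 3.18% of features that were higher. Adjusted p-values of the 9 genes were 0.583 to 0.992. All comparisons with wild type share the 2 wild-type arrays.

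The difference by which the table was selected, CETP cholesterol minus CETP standard-diet label, was negative for all 9 genes, from -2.06 (Slc15a3) to -1.06 (Cd68), with a median of -1.60. The 2 groups overlapped for 8 of the 9 genes, since replicate 5 lay among or below the cholesterol arrays, and did not overlap for Clec7a, as for 8.54% of all features in that direction. Without replicate 4 the median was -0.01, the differences were between -0.39 and 0.68, and 4 of the 9 were positive. Laptm5 then averaged 9.66 ± 0.35 in the cholesterol group (SD, n = 3), against 9.69 on the single standard-diet array. Cd68 averaged 7.81 ± 0.05 in the cholesterol group, against 7.21 on that array.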

How the data were processed

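The members and the gene lists were chosen with earlier results of these data known. RNA (10 ng per sample) was made into biotinylated cRNA by the Pico protocol of Affymetrix, per the labels. The authors deposited log2 values, 1 per probe set and array, and how they were summarized and normalized is not given in the sources used. They also deposited a table of signed folds (a score here), used for its gene symbols only. Per its values, 98.5% of its 1778 folds equal the CETP standard-diet over CETP cholesterol ratio of Tukey biweight averages (tolerance 0.0051), and none is smaller than 1.4 in size. Of 28846 entries, 22206 probe sets were kept and 5222 negative controls served as background. Symbols were matched to RefSeq names (GRCm38.p6) on the chromosome that the probe set names: 1467 matched by symbol and 55 by synonym. For 85 the file's name was kept, 160 naming several genes and 8 on another chromosome stayed unnamed, and 3 without a chromosome were matched by symbol. The probe set of highest mean stood for a gene, which left 22193 features.

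Groups came from the labels. A limma model of 3 group means was fitted to all 7 arrays (lmFit and eBayes, limma 3.58.1, R 4.3.3, 4 residual degrees of freedom), with two-sided p-values and Benjamini-Hochberg adjustment over all features at 0.05. The CETP mean weighted each of 5 arrays equally. Animal numbers differ between all arrays, per the labels, and the number of arrays limits the precision. The design assumed protein sequences for a motif search, which was not made. The fit was also run on simulated data with independent normal noise and changed features shifted alike on all CETP arrays. No array was made to stand apart there, so that run is no check on how replicate 4 acts here. Named genes were all 9 members, up to 4 further genes per list by smallest unadjusted p between CETP and wild type, and the 5 genes of highest likeness. A gene chosen by this rule is not reported here, though it was kept as a member of its lists. Others are named as examples and were chosen after their values were seen (C1qa, Gpr34, Syk, Apoe, and the marker genes). Same-numbered samples deviated together with r of 0.008 and 0.037, so replicate numbers were not taken as pairs. The alternatives tried were quantile normalization, single arrays left out, a fit of the compared groups alone, subtracting array or negative control medians, a filter on dim features, array weights, a trended robust prior, blocks, averaged probe sets, equal group weights and other thresholds. Tables were made with pandas 2.3.3 and numpy 2.4.6 (Python 3.11.15) and figures with matplotlib 3.10.9.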

Additional observations from a re-analysis of the deposited data

Results flagged for a closer look

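The 9 genes come from a table selected on the difference between the CETP diet groups, which for these genes lies in replicate 4 of the standard-diet group, so the distance of that array from the other CETP arrays describes the selection and is no test. Among the 5 CETP arrays its log2 values were 10.14 for Trem2, 10.88 for Tyrobp, 10.46 for Cst7, 8.79 for Clec7a and 10.55 for Cd68. They were 12.64 for Laptm5, 10.72 for Mpeg1, 10.20 for Aif1 and 11.85 for Slc15a3. The gap to the nearest other array took between 0.74 (Trem2) and 0.953 (Slc15a3) of the range of the 5, above Dixon's 95% critical value of 0.71 by which these values were picked out. The usual rate of such marks by chance, about 1 in 20 groups, does not hold for genes selected in this way and measured on the same arrays.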

How the results depend on the processing

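Of 405 differences of single genes recomputed under the alternatives, 385 kept their direction and their side of the threshold, 12 changed sign and 8 passed the threshold. With single arrays left out, the differences from wild type ranged, over all CETP arrays, from -0.37 to 0.64 for Clec7a, -0.14 to 0.70 for Cd68 and -0.27 to 0.65 for Aif1, where the negative values are those without replicate 4 of the CETP standard-diet group. For that group they ranged from -0.079 to 3.17 for Clec7a, -0.60 to 2.75 for Cd68 and -0.29 to 2.86 for Aif1, again negative without replicate 4. For the cholesterol group they ranged from -0.17 to 0.19 for Cd68, -0.048 to 0.60 for Cst7 and -0.57 to 0.030 for Aif1. Cd68 in that group was -0.0096 with the first digit of the animal number as a block and -0.0054 with the replicate block. The median of the 9 genes in cholesterol minus standard-diet CETP mice ranged from -3.56 to -0.013, and the median likeness r of 0.99 was 0.57 without replicate 4. Leaving out single arrays gave 0 to 9 called features between the CETP standard-diet group and wild type and 0 to 14 between the CETP diet groups, the highest counts without replicate 5, and 0 in the comparisons of all CETP arrays and of the cholesterol group with wild type. At an unadjusted p under 0.05 the counts were 1845 for all CETP arrays against wild type, 1175 for the standard-diet group, 1924 for the cholesterol group and 675 between the diet groups. With the replicate block, 7 features were called between cholesterol and wild-type arrays. No paired analysis was possible for the other comparisons because the groups share fewer than 2 replicate numbers, or, for all CETP arrays, the block could not be estimated. With the 95th percentile of the negative controls as background, 1 value lay above it in place of 23. The filter on dim features kept 3 of the 9 genes (Laptm5, Cd68 and Slc15a3), all 9 being measured on every array. The causes of these shifts were not tested.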
